A study of Saccharomyces cerevisiae with 94 samples.

Results

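Cryptic unstable transcripts (CUTs) of budding yeast were taken as every entry of the transcript list with the biotype CUTs, 782 of 13252 entries. Of these, 769 were listed in the tables analysed here and 766 had at least 1 read in them, while 13 were listed only in tables not used here. Poly(A)+ RNA of cells labelled W303 and grown at 25 °C was sequenced as RNA on nanopores, so that each read gave a transcript and the length of its poly(A) tail. The Mex67-AA groups were taken 4 to 30 min after rapamycin and the control at 0 min. Their strain carries Mex67, the mRNA export receptor, fused to FRB in an anchor-away background (tor1-1, fpr1 deleted, RPL13A-FKBP12), so the 0 min control carries every one of these alleles too. The heat groups were wild-type cells 2 to 20 min after a shift to 37 °C, against the same cultures at 0 min. Each of these 2 chases had 3 replicates, A, B and C for Mex67-AA and A, B and D for heat. The chase with thiolutin, an RNA polymerase inhibitor, had 1 usable replicate of 8 times up to 60 min. Pooled tables gave Dcp2-AID and Xrn1-AID cells and their wild-type control, all with the auxin 1-NAA for 2 h, then Pab1-AID cells after 1 h and 2 h of auxin and without it, and ccr4Δ and pan2Δ deletion strains beside a wild-type pool. In the AID strains a degron fused to the protein lets auxin deplete it through the plant F-box protein OsTIR1. Per the strain list of the study, the Xrn1-AID and Pab1-AID strains also carry tor1-1 and the fpr1 deletion, the Pab1-AID strain is tagged at Mex67 as well, and the ccr4Δ and pan2Δ strains have a parent other than W303. The labels disagree in places. The pan2Δ samples are pan2Δ by title and genotype while their descriptions name ccr4Δ, the Pab1-AID control is titled as wild type while its genotype is Pab1-AID, so a difference in strain cannot be told apart from the auxin there, and the wild-type samples beside the deletion strains are labelled 25 °C while their titles and a supplement of the study, which covers the deletion strains too, give 30 °C. Single libraries gave a pop2Δ strain, wild-type RNA digested with Xrn1 in vitro and the undigested wild-type RNA.

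CUTs are made by RNA polymerase II, often from the divergent side of a promoter or antisense to a gene. The Nrd1-Nab3-Sen1 complex ends them early at short motifs in the RNA, the TRAMP complex gives them a short tail, and the nuclear exosome with Rrp6 degrades them, so that little of each is seen in cells with an intact exosome. Many snoRNA precursors end through the same Nrd1-dependent route. SUTs are stable unannotated transcripts, and XUTs are transcripts that accumulate without Xrn1, the cytoplasmic 5′ to 3′ exonuclease that acts after Dcp2 has removed the cap.

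The transcript list joins overlapping units into single entries, and 475 of the 769 CUT entries carry a CUT name alone. These kinds of entry were set apart after names and values had been seen, so they serve for description only. Those with a CUT name alone had a median length of 408 bases, and 47 of them reached 10 reads in some library. Another 261 are joined with an XUT or SUT (median 1039 bases, 141 with 10 reads), 21 with a snoRNA or tRNA (549 bases, 14 with 10 reads) and 12 with an open reading frame name (1296 bases, 10 with 10 reads). In the 0 min libraries of both chases, 7499 reads fell on CUT entries, and 51.7% of them were on XUT or SUT joins, 32.1% on open reading frame joins, 9.89% on entries with a CUT name alone and 6.25% on snoRNA or tRNA joins. For the 12 open reading frame joins, the other entries naming the same frames held 72 reads over all libraries analysed, against 26761 reads on the CUT entries. Reads of an mRNA such as that of COX4, a subunit of cytochrome c oxidase, were therefore counted on its CUT entry. A level of such an entry cannot be split into mRNA and CUT with these files.

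By position, 497 of the 769 entries (64.6%) overlapped a protein-coding gene on the opposite strand, against 65.3% of XUTs and 41.6% of SUTs. A protein-coding gene pointing away started within 500 bases of 55.3% of CUTs, against 40.5% of XUTs and 48.9% of SUTs. On their own strand 13 CUTs (1.69%) overlapped a coding gene, 8 of them among the 12 open reading frame joins, so the frame names of the other joins are not coding genes of RefSeq. Nab3 is known to bind UCUU and Nrd1 GUAA or GUAG, here written with T. On the RNA strand, TCTT occurred 11.04 times per 1000 bases in CUTs, 13.2 times in those with a CUT name alone, 7.75 in XUTs, 7.004 in SUTs and 5.27 in mRNAs. Entries of 300 to 600 bases gave 12.5 in CUTs, 6.97 in XUTs, 6.54 in SUTs and 7.001 in mRNAs. In the last 300 bases, 95.1% of 636 CUTs held TCTT, against 86.5% of XUTs, 90.7% of SUTs and 79.3% of mRNAs. GTAA was in 81.9% of these CUT ends and GTAG in 70.1%, against 79.6% and 61.1% in XUTs and 73.8% and 49.7% in mRNAs. Matches that overlap were each counted, and a match marks letters, not a binding site. The sequences shown are those on which the results below turn, 2 snoRNA joins with the largest rises after Mex67 anchoring, a CUT with no other name that rose in heat, and an abundant join that fell after Mex67 anchoring and rose in heat. They come from the RefSeq copy of the R64 genome (sacCer3), which is S288C sequence and not W303, and run 5′ to 3′ with TCTT, GTAA and GTAG in capitals. The first, snR52,CUT567, is whole (chrV:431118-431365, minus strand), and the others are the last 300 bases, of snR45,CUT433 (chrXVI:821864-822163, plus), CUT040 (chrIII:39126-39425, plus) and XUT_7R-243,CUT606 (chrVII:534982-535281, minus).
snR52,CUT567: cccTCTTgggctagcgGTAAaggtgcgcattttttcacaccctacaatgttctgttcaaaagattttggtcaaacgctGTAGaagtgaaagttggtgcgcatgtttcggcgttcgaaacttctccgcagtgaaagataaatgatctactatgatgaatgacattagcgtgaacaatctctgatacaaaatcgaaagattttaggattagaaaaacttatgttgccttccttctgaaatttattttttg
snR45,CUT433: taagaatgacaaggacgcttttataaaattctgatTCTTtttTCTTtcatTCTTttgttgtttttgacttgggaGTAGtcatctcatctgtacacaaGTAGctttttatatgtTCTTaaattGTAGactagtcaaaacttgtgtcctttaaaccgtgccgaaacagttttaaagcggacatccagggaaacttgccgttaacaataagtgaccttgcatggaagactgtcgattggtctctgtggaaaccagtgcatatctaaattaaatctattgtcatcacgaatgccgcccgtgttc
CUT040: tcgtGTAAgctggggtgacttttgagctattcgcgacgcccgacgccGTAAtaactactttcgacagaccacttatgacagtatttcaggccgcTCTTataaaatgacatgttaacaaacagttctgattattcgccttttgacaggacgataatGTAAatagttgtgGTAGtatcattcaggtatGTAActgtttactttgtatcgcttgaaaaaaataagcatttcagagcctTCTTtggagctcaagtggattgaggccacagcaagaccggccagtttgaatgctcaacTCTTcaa
XUT_7R-243,CUT606: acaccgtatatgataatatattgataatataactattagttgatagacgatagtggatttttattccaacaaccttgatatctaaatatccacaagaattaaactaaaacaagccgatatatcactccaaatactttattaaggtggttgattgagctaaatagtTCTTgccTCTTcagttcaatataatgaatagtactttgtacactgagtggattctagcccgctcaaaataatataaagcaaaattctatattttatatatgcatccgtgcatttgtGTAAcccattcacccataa
TCTT was present 1, 4, 3 and 2 times in these sequences, in the order shown. The divergent gene nearest to XUT_7R-243,CUT606 is YGR027W-B, which starts 252 bases away. Whether reads of that entry match other places in the genome too was not tested.

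Depth set what could be seen of so rare a class. Without ENO2, whose reads were left out because the study used it as a spike-in in other libraries and which took 0 to 39.7% of reads, heat libraries held 25838 to 668505 reads, Mex67-AA libraries 188519 to 2184459, thiolutin libraries 320726 to 777753 and the pools 978487 to 5485510. The heat D libraries at 0 min (86022 reads) and 4 min (25838 reads) were the shallowest. At the same depth of 180000 reads, 105 to 132 CUTs were expected with at least 1 read in the 3 Mex67-AA libraries at 0 min, 65.4 to 122 (median 74.98) in the 9 at 8 to 16 min and 86.6 to 173 in the 3 at 20 to 30 min. In heat, 87.2 to 91.1 CUTs were expected in the 2 libraries at 0 min deep enough, 98.0 to 106 at 2 to 8 min, 104 to 121 at 10 to 12 min and 107 to 122 at 14 to 20 min. Unthinned, 214 to 252 CUTs were seen at 0 min and 286 to 359 at 20 to 30 min after rapamycin, and 62 to 166 at 0 min and 132 to 218 at 14 to 20 min of heat.

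The first question was whether CUTs take another share of poly(A)+ RNA once Mex67 is removed. At 8 to 16 min after rapamycin, CUTs were 863, 914 and 1192 of each 1000000 reads in replicates A, B and C, against 1695, 1465 and 1705 at 0 min. The groups did not overlap, and the share was 0.0990% against 0.162%, a log2 ratio of -0.72 ± 0.23 (SD, n = 3; lower in 3 of 3 replicates). An exact two-sided sign-flip test gave p = 0.25, the smallest that 3 replicates allow. At 20 to 30 min the values were 1186, 878 and 1973, so that replicate C was above and A and B below their own 0 min libraries. The log2 ratio there was -0.35 ± 0.50 (n = 3; exact p = 0.5), with a 20 min library in B and 30 min libraries in A and C. XUT shares changed by -1.18 and -0.997 on the log2 scale in the early and late windows, so CUTs less XUTs came to 0.45 ± 0.03 and 0.65 ± 0.16 (SD, n = 3; above 0 in 3 of 3, exact p = 0.25). SUT shares changed by -0.98 and -0.81. In poly(A)+ RNA of whole cells, fewer molecules and shorter or absent tails that escape oligo-dT selection cannot be told apart, nor can fewer reads of one transcript and more of the rest.

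In heat the CUT share was higher than at 0 min. CUTs were 1393, 1475 and 1567 per 1000000 reads at 2 to 8 min in replicates A, B and D, then 1556, 1812 and 1921 at 10 to 12 min and 1931, 1890 and 1694 at 14 to 20 min, against 1173, 1255 and 1256 at 0 min. Every later window lay above every 0 min library. The log2 ratios were 0.27 ± 0.05 at 2 to 8 min and 0.58 ± 0.14 at 14 to 20 min (SD, n = 3; higher in 3 of 3, exact p = 0.25 each). XUTs gave 0.31 and 0.85, so CUTs less XUTs came to -0.05 and, at 14 to 20 min, -0.27 ± 0.04 (below 0 in 3 of 3, exact p = 0.25). For thiolutin, with 1 replicate and no test, the share lay between 0.180% and 0.216% at all 8 times, and the log2 ratio of 60 min to 0 min was 0.25 (95% exact counting interval 0.11 to 0.39). A single entry that holds an mRNA, that of COX4, took 26.7% to 42.0% of the CUT reads in these libraries.

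**Figure D1:**
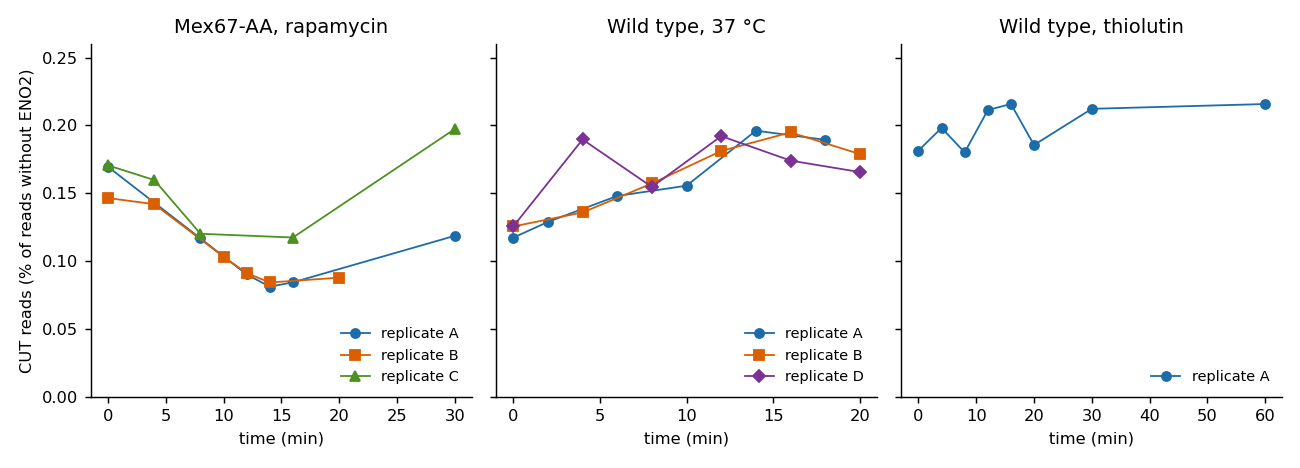
CUT reads as a percent of all reads without ENO2 (vertical axis) against minutes of treatment (horizontal axis), with 1 point per library and a line per replicate. After rapamycin the Mex67-AA libraries dip by 8 to 16 min and C ends above its start, the heat libraries lie above their 0 min values, and the thiolutin values stay between 0.180% and 0.216%.

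The kinds of entry differed in direction after Mex67 anchoring. Joins with a snoRNA or tRNA held 312, 145 and 531 per 1000000 reads at 20 to 30 min in A, B and C, against 108, 101 and 79.1 at 0 min, a 3.03-fold higher share (log2 1.60 ± 1.11, SD, n = 3; higher in 3 of 3). Open reading frame joins held 150, 184 and 137, against 520, 491 and 449 at 0 min (fold 0.321, log2 -1.64 ± 0.20; lower in 3 of 3). Entries with a CUT name alone held 211, 139 and 515, against 163, 127 and 254 (log2 0.51 ± 0.46; higher in 3 of 3), and XUT or SUT joins 513, 409 and 790, against 903, 746 and 923 (log2 -0.64 ± 0.36; lower in 3 of 3). With 3 replicates no exact test of these could go below p = 0.25. Earlier, at 8 to 16 min, the log2 ratios were -0.15 for snoRNA or tRNA joins, -0.68 for open reading frame joins, -0.33 for CUT names alone and -0.94 for XUT or SUT joins. Without the open reading frame joins, the share of all other CUT entries changed by -0.75 at 8 to 16 min and -0.04 at 20 to 30 min. In heat at 14 to 20 min the kinds lay closer together, at 0.50 for CUT names alone, 0.60 for XUT or SUT joins, 0.65 for open reading frame joins and 0.19 for snoRNA or tRNA joins. In the thiolutin chase, snoRNA and tRNA joins held 87.7 per 1000000 reads at 0 min, 220 at 30 min and 200 at 60 min, and CUT names alone 150 at 0 min, 233 at 4 min and 122 at 60 min. Open reading frame joins held 818 at 0 min, 1053 at 30 min and 845 at 60 min there, and XUT or SUT joins 759, 715 and 992.

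**Figure D2:**
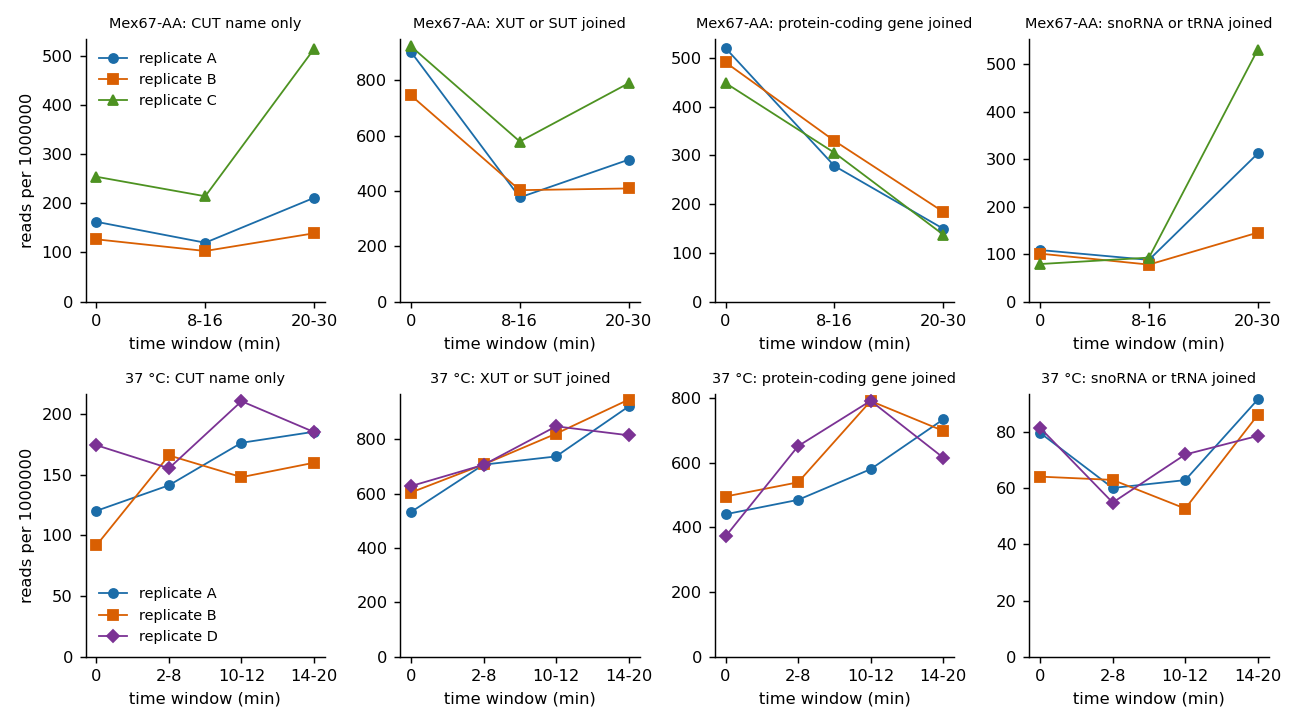
Reads per 1000000 (vertical axes, each panel with its own scale) of the 4 kinds of CUT entry by time window in minutes (horizontal axes) in the Mex67-AA and heat chases, with 1 point and line per replicate (protein-coding gene joined stands for the open reading frame joins). At 20 to 30 min after rapamycin the snoRNA or tRNA joins lie above and the open reading frame joins below all of their 0 min values.

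Single entries were then tested with edgeR's quasi-likelihood test on the counts, scaled by library totals with the replicate as a block and adjusted over all transcripts fitted (Benjamini-Hochberg, called under 0.05). Of 4200 transcripts fitted in the Mex67-AA chase, 35 were CUTs. By 20 to 30 min, 4 CUTs had risen and 16 had fallen, where 4.88% of all transcripts rose and 73.9% fell. The median log2 change was -0.82 over the 35 CUTs and -1.60 over all transcripts. By 8 to 16 min, 1 CUT had risen and 13 had fallen, where 2% of all rose and 55.1% fell, with medians of -0.75 and -0.97. By kind, at 20 to 30 min 6 of 6 open reading frame joins and 10 of 21 XUT or SUT joins fell, 4 of 6 snoRNA or tRNA joins rose, and neither of the 2 entries with a CUT name alone was called. Only 6 of the 21 snoRNA or tRNA joins were fitted. The filter accepted reads from any window, so snR52,CUT567 and snR45,CUT433, near 0 at 0 min, were fitted only through later windows where they were high. The 4 of 6 therefore cannot serve as a test of the kind. Of XUTs, 3 rose and 47 fell out of 90, and 7 of 15 SUTs fell. TMM factors, which move the median of all transcripts to -0.17 and -0.33 in the early and late windows, gave 6 CUTs that rose and 5 that fell early, and 11 that rose and 4 that fell late. Directions given here are relative to library totals. The 20 late calls became 12 without replicate A and 32 without replicate C, and the 14 early calls 2 and 28.

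The 4 entries that rose at 20 to 30 min after rapamycin are all joins with a snoRNA. snR52 and snR45 are box C/D snoRNAs and snR9 and snR11 box H/ACA snoRNAs, which guide modification of ribosomal RNA. snR52,CUT567, the chromosome V entry printed above, held 67.6, 13.7 and 140 reads per 1000000 in A, B and C at 20 to 30 min, against 2.75, 0 and 2.14 at 0 min. All 3 late libraries lay above all 0 min libraries, and edgeR gave a log2 change of 5.01 ± 0.56 (SE; adjusted p = 9e-06). For snR45,CUT433 the values were 26.2, 10.3 and 60.0, against 0, 0.893 and 2.14 (log2 5.33 ± 0.76, edgeR adjusted p = 3.8e-05). That rests on 87 reads against 2, a ratio of 49.3 with a 95% counting interval of 13.3 to 414. It was also the entry that rose at 8 to 16 min, with 32 reads against 2 (ratio 7.88, interval 2.01 to 67.9). CUT839,CUT840,snR9 on chromosome XV held 70.2, 25.4 and 99.5, against 15.1, 5.36 and 8.55 (log2 2.50 ± 0.38). The long join named for snR11 on chromosome XIII held 53.3, 40.4 and 61.4, against 22.0, 24.1 and 19.2 (log2 1.20 ± 0.31). In all 4 the lowest late value was that of B, whose library was taken at 20 min. The counts do not tell a snoRNA extended at its end from a CUT that starts beside it.

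Among the entries that fell, the most abundant CUT entry, YGL188C,YGL187C,CUT589, holds the COX4 mRNA (chrVII:149472-150967, minus strand). It held 82.0, 124 and 49.7 per 1000000 reads at 20 to 30 min in A, B and C, against 277, 278 and 229 at 0 min (log2 -1.65 ± 0.22, edgeR adjusted p = 2.3e-05), with no overlap. CUT061,YDR003W,YDR003W-A, which covers RCR2, held 5.07, 6.17 and 8.78, against 41.7, 38.4 and 32.1 (log2 -2.59 ± 0.41). CUT380,YOR101W,YOR102W, which covers RAS1, a GTPase that stimulates adenylate cyclase, held 10.1, 19.2 and 8.78, against 79.7, 66.99 and 42.7 (log2 -2.30 ± 0.37). These 3 carry mRNA names. CUT599,YGL072C lies wholly antisense to HSF1, the heat shock transcription factor (chrVII:370248-371247, minus strand), and held 5.07, 6.17 and 1.46, against 28.8, 25.0 and 34.2 (log2 -2.60 ± 0.45). XUT_7R-243,CUT606 held 21.1, 24.0 and 24.9, against 70.5, 63.4 and 76.9 (log2 -1.59 ± 0.28). At 8 to 16 min, the largest fall was that of XUT_2F-177,CUT025, which runs antisense to TIM12, PHO3 and PHO5, with 0.833, 2.41 and 1.47, against 23.3, 13.4 and 8.55 (log2 -3.17 ± 0.56). XUT_16F-28,CUT402 and its joined units, antisense to GYP5 and GAL4, the galactose activator, held 1.67, 2.41 and 0, against 17.9, 13.4 and 17.1 (log2 -2.93 ± 0.61). Both were closer to their 0 min values at 20 to 30 min, at -1.53 ± 0.53 and -1.36 ± 0.58, and DESeq2 size factors left them at 0.0056 and 0.15 there.

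In the heat chase, 18 of 4056 transcripts fitted were CUTs. By 14 to 20 min, 8 CUTs rose and 1 fell, where 46.3% of all transcripts rose and 13.2% fell, and the medians were 0.82 over CUTs and 0.69 over all. By 2 to 8 min, 2 rose and 0 fell, where 9.59% rose and 2.56% fell. At an unadjusted edgeR p under 0.05, 5 were higher and 1 lower, and DESeq2 called 2 that rose and 0 that fell. TMM factors gave 5 that rose and 2 that fell late, and 2 and 0 early. Without replicate B the late calls were 5 in place of 9, and the early calls 0 in place of 2. CUT431,XUT_16F-280 (chrXVI:697124-698489, plus strand), antisense to YPR078C over most of its length, held 17.3, 32.7 and 25.8 per 1000000 reads at 14 to 20 min in A, B and D, against 0, 2.13 and 0 at 0 min. This is 62 reads against 1, a ratio of 26.2 with a 95% counting interval of 4.53 to 1052 (log2 4.39 ± 0.96, edgeR adjusted p = 0.0017). CUT431,XUT_16F-280 passed the filter only through later windows, where it was high. CUT040, with no other name, lies on chromosome III (39050 to 39425) beside the divergent APA1, a diadenosine polyphosphate phosphorylase, whose start is 249 bases away. It held 23.1, 13.8 and 18.8, against 5.31, 2.13 and 0 (log2 2.34 ± 0.66, edgeR adjusted p = 0.0082). These 0 min values rest on few reads, in libraries of 565366, 468416 and 86022 reads, so the size of the rise is loosely set. CUT040 was at 31.4, 32.6 and 30.8 at 10 to 12 min, above both the earlier and the later window in every replicate. The join ending in CUT085, antisense to HXT3, a hexose transporter, held 23.9, 32.7 and 25.8, against 5.31, 2.13 and 0 (log2 2.84 ± 0.58), and its 0 min values rest on equally few reads. CUT599,YGL072C, antisense to HSF1, held 46.2, 37.8 and 22.3, against 10.6, 19.2 and 0 (log2 1.61 ± 0.40), and XUT_7R-243,CUT606 held 115, 86.0 and 115, against 38.9, 40.6 and 69.7 (log2 1.21 ± 0.24).

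SUT738,XUT_13R-341,CUT790, antisense to the glutathione transferase gene GTO3, was high early. It held 12.6, 26.8 and 16.0 at 2 to 8 min and 43.5, 30.1 and 30.8 at 10 to 12 min, then 16.5, 6.88 and 4.69 at 14 to 20 min, against 1.77, 2.13 and 0 at 0 min. The early change rests on 46 reads against 2 (ratio 10.6, interval 2.76 to 89.7; log2 3.35 ± 0.80, edgeR adjusted p = 0.015). This entry too passed the filter only through its later windows. Of the entries that hold an mRNA, the RCR2 entry CUT061,YDR003W,YDR003W-A held 151, 141 and 86.7 at 14 to 20 min, against 31.8, 38.4 and 46.5 (log2 1.82 ± 0.30), and had already risen at 2 to 8 min (1.51 ± 0.31). The COX4 entry held 429, 421 and 409, against 253, 267 and 186 (log2 0.76 ± 0.20). The 1 entry that fell was the RAS1 entry CUT380,YOR101W,YOR102W, at 14.8, 15.5 and 27.0, against 84.9, 98.2 and 58.1 (log2 -2.21 ± 0.31, edgeR adjusted p = 6.3e-05).

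**Figure D3:**
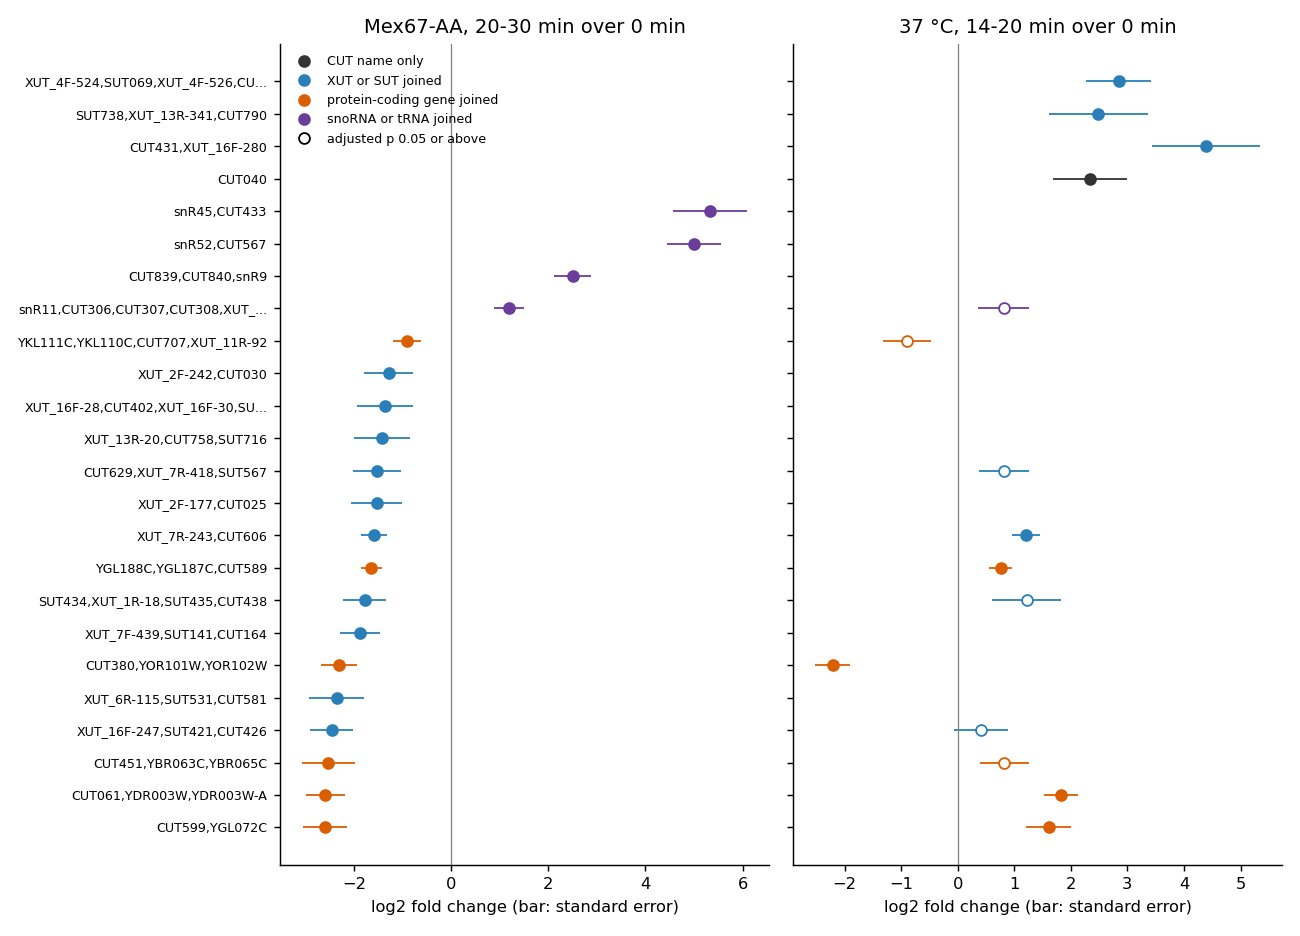
Log2 change with its standard error (horizontal axis) in the late windows, of each CUT entry that edgeR called in the late window of the Mex67-AA or the heat chase, coloured by kind of entry, with open circles at an adjusted p of 0.05 or above and no point where an entry was not fitted. The snoRNA joins stand at the right of the Mex67-AA panel, up to 5.33, and the RAS1 entry CUT380,YOR101W,YOR102W is the filled heat point left of 0, at -2.21.

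Messenger RNAs of the proteins that make or degrade CUTs were read from a list of 27, namely 13 of the nuclear exosome and its cofactors, 5 of TRAMP, 3 of Nrd1-Nab3-Sen1 and 6 of 5′ decay. At 20 to 30 min after rapamycin 23 of the 25 fitted fell and 1 rose, where 73.9% of all transcripts fell and 4.88% rose, with a median log2 change of -2.26 beside the -1.60 over all transcripts. In heat at 14 to 20 min, 19 were fitted, and 6 fell, where 13.2% of all transcripts did. These were RRP6 (log2 -1.35), the nuclear 3′ exonuclease, its partner LRP1 (-2.40), the exosome cap subunits RRP4 (-1.16) and RRP40 (-1.27), the TRAMP helicase MTR4 (-2.40) and NRD1 (-1.16). XRN1 (0.62) and DCP2 (1.02) rose, 2 of the 19, where 46.3% of all transcripts rose with a median of 0.69 over all. These are levels of mRNA, and the protein levels were not measured.

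Tails of CUTs were compared next, as the median over CUTs with at least 10 reads in a library of their mean tail. In the 6 libraries at 0 min, CUT tails averaged 36.7 adenosines against 34.8 for mRNAs, a difference of 1.92 ± 2.87 (SD, n = 6; longer in 4 of 6, exact two-sided sign-flip p = 0.1875, where 0.03125 was the smallest possible). Averaged over reads the difference was 9.18. A single entry had 10 reads in all 6 libraries, the COX4 mRNA join YGL188C,YGL187C,CUT589, and for it alone the difference was -0.41. In 5 of these libraries 7 CUTs had 10 reads each. Their mean tails lay between 30.99 ± 4.98 for SUT054,XUT_4F-267,CUT065,SUT055, antisense to NRG1, a transcriptional repressor, and 39.7 ± 6.91 for CUT061,YDR003W,YDR003W-A (SD, n = 5), and neighbours in that order did not differ beyond their spread.

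After Mex67 anchoring the tails of CUTs were shorter on average in both windows. The median of transcript means was 28.7 ± 5.27 adenosines at 8 to 16 min and 27.8 ± 3.601 at 20 to 30 min, against 39.5 ± 1.31 at 0 min (SD, n = 3). The differences were -14.0, -15.2 and -3.32 early and -11.5, -16.6 and -6.97 late in A, B and C, shorter in 3 of 3 each time (exact p = 0.25, the smallest possible). mRNA tails differed by -9.44 and -7.30 on the same measure. Over reads the differences came to -8.86 and -5.40 for CUTs and to -5.40 and -8.08 for mRNAs, so that late CUTs differed by more than mRNAs on medians of transcripts and by less over reads. Those medians take whichever CUTs had 10 reads at each time. Over CUTs with 10 reads in both windows, the early tails were 25.5, 27.5 and 28.8 adenosines in A, B and C, against 36.0, 40.1 and 35.0 at 0 min (31, 31 and 12 CUTs). The late tails were 31.05, 24.5 and 34.2, against 36.5, 36.3 and 33.4 (20, 16 and 5 CUTs), shorter in 2 of 3 with a mean difference of -5.49. The kinds diverged late, at the last times of each replicate, which the study left out of its deadenylation modelling. It gave hyperadenylation of a few newly made mRNAs under the export block as the likely reason. Over reads, snoRNA or tRNA joins had 29.3, 24.5 and 27.6 adenosines at 20 to 30 min, against 39.9, 44.5 and 40.4 at 0 min, with no overlap. Entries with a CUT name alone had 38.6, 33.9 and 40.1, against 37.1, 41.9 and 37.3, which overlap. Means over reads also move with the mix of entries, so shorter tails and a changed mix cannot be told apart for a kind. The snR11 join had 26.1, 22.9 and 30.6, against 40.3, 49.4 and 42.7. snR52,CUT567 had the shortest tails of the 4 that rose, at 21.4, 15.0 and 20.9. XUT_7R-243,CUT606 had 28.0, 23.8 and 16.1, against 34.5, 35.5 and 39.4, shorter in 3 of 3.

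In heat, CUT tails gave no single direction. The median of transcript means was 5.07 ± 2.12 adenosines longer at 2 to 8 min and 5.03 ± 2.73 longer at 14 to 20 min than at 0 min (SD, n = 3; longer in 3 of 3, exact p = 0.25), but at 0 min replicate D had a single CUT with 10 reads. Over reads the tails were 40.3 and 40.5 in the 2 windows, against 40.5 at 0 min (differences -0.16 and 0.03), and at a minimum of 20 reads the differences were -1.40 and -1.50. Entries with a CUT name alone had 36.8, 36.6 and 36.5 over reads at 14 to 20 min, against 43.9, 43.8 and 43.9 at 0 min, shorter in 3 of 3 and on few reads. CUT040 had 33.9, 30.5 and 29.8 at 14 to 20 min, after 45.4, 60.8 and 51.4 at 2 to 8 min.

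**Figure D4:**
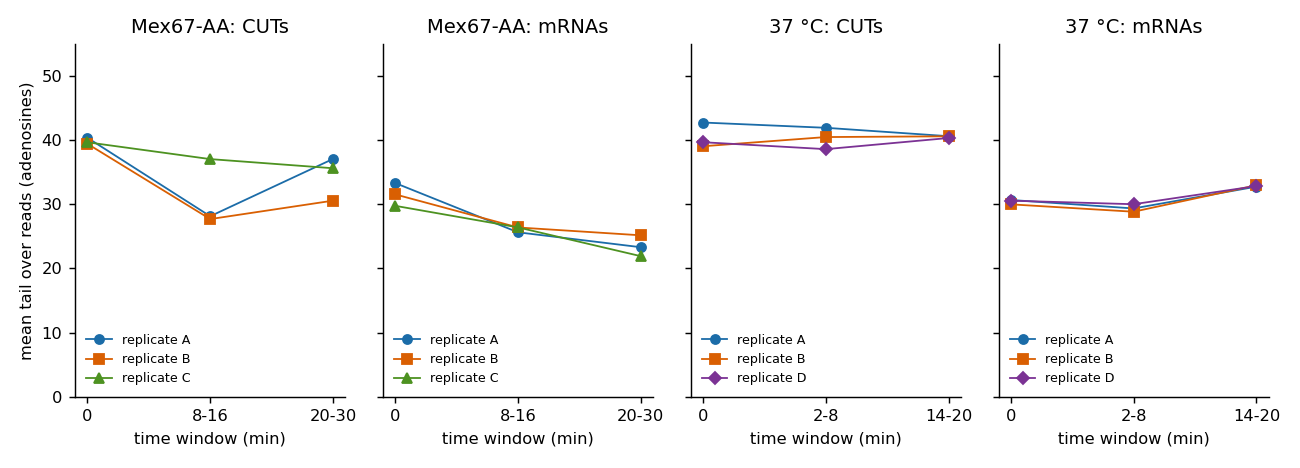
Mean tail over reads in adenosines (vertical axis) of CUTs and mRNAs by time window in minutes (horizontal axes) in the Mex67-AA and heat chases, with 1 point and line per replicate. CUT tails over reads are shorter than at 0 min in 3 of 3 Mex67-AA replicates in both later windows.

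The 5′ decay strains held the largest CUT shares of the pools. With Dcp2, the decapping enzyme, depleted, CUTs were 0.581% of reads, against 0.287% in the wild-type control, a 2.02-fold higher share (95% counting interval 1.95 to 2.10). With Xrn1 depleted the share was 0.413%, 1.44-fold higher (1.38 to 1.499). Each pool is the authors' joined column with no replicate spread, so intervals cover counting error only. Without its most abundant CUT, the log2 ratio became 1.16 in place of 1.02 for Dcp2 and 0.68 in place of 0.52 for Xrn1. In Dcp2-AID, XUT or SUT joins were 2.44-fold higher, snoRNA or tRNA joins 2.06-fold, CUT names alone 1.75-fold and open reading frame joins 1.22-fold, beside 2.78-fold for XUTs. Of 119 CUTs with 20 reads in the pair of pools, 73 were at least 2-fold up and 3 at least 2-fold down, where 20.6% and 2.37% of all transcripts were. In Xrn1-AID, 39 of 104 were up and 10 down, where 13.5% and 9.10% of all were. Of these 104, 83 were XUT or SUT joins, with 33 up and 7 down. The 6 entries with a CUT name alone had 2 up and 3 down, with a median of 0.463-fold. By share, snoRNA or tRNA joins were at 1.73-fold, XUT or SUT joins 1.67-fold, CUT names alone 1.29-fold and open reading frame joins 0.945-fold. In Dcp2-AID, 64 of 94 XUT or SUT joins were up and 0 down, and of 9 entries with a CUT name alone 3 were up and 3 down. XUT_4R-274,CUT502,SUT473 had 98 reads in Dcp2-AID and 12 in the control, 14.1-fold by share. Some went down in both, each an entry with a CUT name alone. CUT888 had 3 reads in Dcp2-AID and 1 in Xrn1-AID, against 57 in the control, CUT228 had 9 and 3, against 34, and CUT122 had 5 and 0, against 21. The control was a different strain from either, so depletion and strain cannot be told apart.

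Tails of CUTs were shorter in both. Over 94 CUTs the median tail came to 31.4 adenosines after Dcp2 depletion and 42.8 in control cells, and 87 of the 94 were shorter, with a median difference of -11.5 beside -5.30 for mRNAs. In Xrn1-AID it was 34.6, against 42.9, over 79 CUTs, and 68 were shorter (-8.35, beside -2.51 for mRNAs). XUTs in Dcp2-AID changed by -12.4. Most of these CUTs were XUT or SUT joins, 76 of the 94 in Dcp2-AID (-11.7, 72 shorter) and 65 of the 79 in Xrn1-AID (-8.78, 57 shorter). In Dcp2-AID, 9 open reading frame joins changed by -7.65 and 6 snoRNA or tRNA joins by -7.19. Only 3 entries with a CUT name alone had the reads in Dcp2-AID (-0.77, 2 shorter) and 1 in Xrn1-AID, too few to describe that kind.

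With Pab1, the poly(A)-binding protein, depleted, the CUT share was 0.219% after 1 h and 0.239% after 2 h of auxin, against 0.210% without auxin, 1.04-fold and 1.14-fold. The kinds lay on both sides of that total after 2 h, with CUT names alone at 1.60-fold (95% counting interval 1.44 to 1.78), snoRNA or tRNA joins at 1.54-fold (1.35 to 1.77), XUT or SUT joins at 1.19-fold (1.11 to 1.27) and the open reading frame joins at 0.698-fold (0.636 to 0.767). Of 84 CUTs, 5 were at least 2-fold up and 1 down after 1 h, where 0.924% and 2.99% of all transcripts were, and of 74 CUTs 11 were up and 3 down after 2 h, where 2.01% and 8.42% were. snR52,CUT567 was among those up after 2 h, with 51 reads against 15 (3.59-fold by share) and tails of 15.9 against 16.1 adenosines. CUT724,CUT725,snR42 had 26 against 9, and snR3,CUT221,CUT222,CUT223 had 37 against 12 after 1 h. The RAS1 entry CUT380,YOR101W,YOR102W was among the lowest, with 99 and 56 reads after 1 h and 2 h, against 149. CUT tails had a median of 50.2 after 1 h, against 44.9 without auxin, and changed by a median of 6.06 over 68 CUTs, beside 11.2 for mRNAs. The mRNAs started shorter, at 37.6, and had 50.2 after 1 h as well. XUTs changed by 8.23, from 48.2 to 56.2. After 2 h CUT tails changed by 4.93 over 61 CUTs, to 50.9, beside 11.6 for mRNAs, to 50.3.

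Ccr4 and Pop2 belong to the Ccr4-Not deadenylase and Pan2 to the Pan2-Pan3 deadenylase, which shorten tails in the cytoplasm. The CUT share was 0.172% in ccr4Δ and 0.143% in pan2Δ, against 0.172% in the wild-type pool, 0.998-fold (0.962 to 1.04) and 0.833-fold (0.803 to 0.864). That pool was aligned to a longer transcript list than the deletion strains, and reads on its further entries count in its total. How far this moves the ratios was not tested. In ccr4Δ 8 of 124 CUTs were at least 2-fold up and 12 down, where 8.62% and 1.78% of all transcripts were. In pan2Δ 4 of 134 were up and 20 down, where 1.55% and 8.43% were. CUT445,XUT_2R-109, antisense to GAL1, the galactokinase, had 37 reads in ccr4Δ and 2 in pan2Δ, against 326 in the wild-type pool, while undigested wild-type RNA had 3. CUT460 had 0 reads in ccr4Δ, against 41, and CUT605 0 in pan2Δ, against 23, and a count of 0 allows up to 3 reads by counting error alone. Tails were longer in both. pan2Δ had a median of 56.7 adenosines, against 45.5, and only 5 of 90 CUTs were shorter (median difference 11.7, beside 6.38 for mRNAs). Against the undigested wild-type RNA, a control chosen after the data were seen, it was 14.1 over 45 CUTs with 0 shorter. ccr4Δ had 49.9, against 46.6 (4.58 over 88 CUTs, 31 shorter, beside 6.32 for mRNAs), and 9.48 over 52 CUTs against the undigested RNA. By kind, snoRNA or tRNA joins had a median difference of -1.04 over 10 entries in ccr4Δ, while open reading frame joins had 7.65. Against the undigested RNA the snoRNA or tRNA joins had 7.62 over 8 entries with 0 shorter, so their direction turned with the control.

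In single libraries with no replicate, the pop2Δ share was 0.265%, against 0.187% in undigested wild-type RNA (1.42-fold, 1.31 to 1.53), and of 31 CUTs 6 were at least 2-fold up and 1 down, where 29% and 1.85% of all transcripts were. Tails changed by 8.48 over 16 CUTs, beside 3.94 for mRNAs, 2.94 over 40 XUTs (16 shorter) and 10.6 over 7 SUTs. Of the 16, 8 were XUT or SUT joins, 6 open reading frame joins and 2 snoRNA or tRNA joins, with 0 entries of a CUT name alone. Digestion of wild-type RNA with Xrn1 in vitro, which removes RNA with no cap, left CUTs at 0.205%, against 0.187% undigested (1.10-fold, 1.03 to 1.17). A second table of the same digested sample gave 0.189%. Of 39 CUTs, 1 was at least 2-fold up and 1 down, where 2.46% and 5.39% of all transcripts were, and the median tail difference over 29 CUTs was 0.04.

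**Figure D5:**
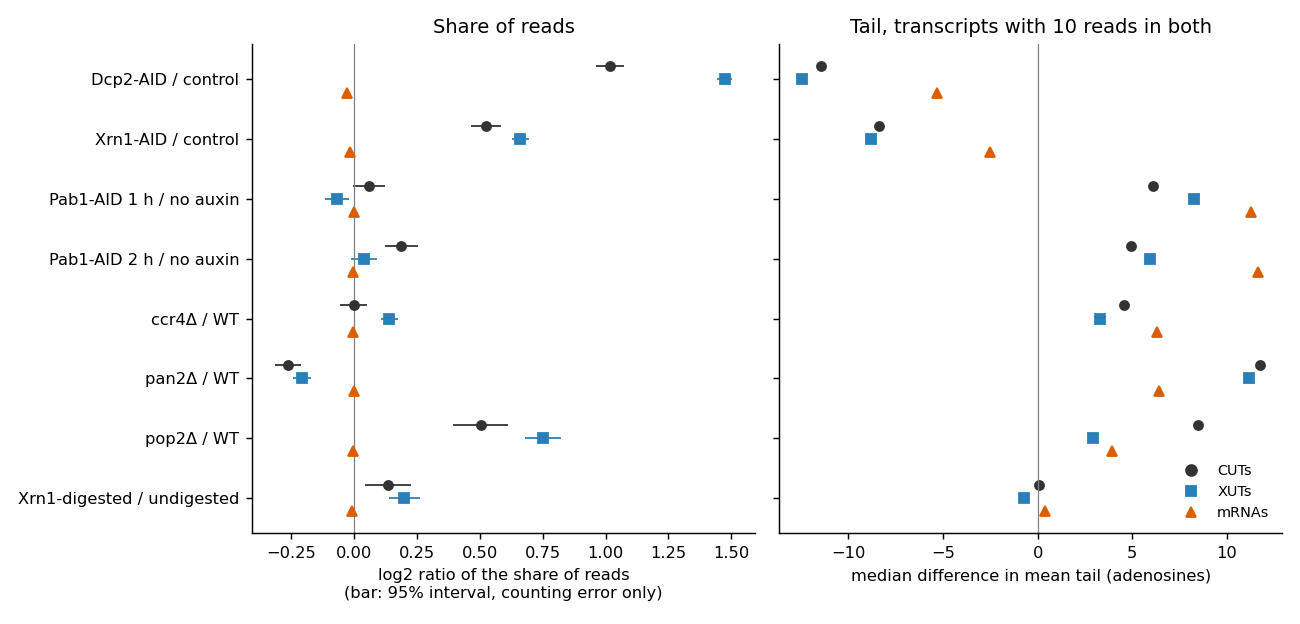
For each pooled or single comparison, the log2 ratio of the share of reads with its 95% counting interval (left) and the median difference in mean tail in adenosines (right), for CUTs, XUTs and mRNAs. Dcp2-AID and Xrn1-AID have higher CUT shares and shorter CUT tails than their control, and pan2Δ a lower share with longer tails than the wild-type pool.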

How the data were processed

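Per the labels and methods, the authors aligned nanopore direct RNA reads with minimap2 2.17 to a transcript list on sacCer3, used SAMtools 1.9, and took tails from Nanopolish. The deposited counts are whole reads per transcript without normalization, and the deposited tail columns are means, medians and quantiles in adenosines, computed by the authors from reads that passed Nanopolish, of which the means were used, and the medians as an alternative. Samples were grouped by GEO labels. Of 1320 value columns, 336 were used and 984 were not, for want of a label match or a control. From the counts, shares were computed over library totals without ENO2, and edgeR tested counts summed per replicate and window (filterByExpr, totals as library size, no scaling factor, replicate block). Replicates were paired because the times of a replicate come from 1 time course (correlations of deviations -0.08 to 0.48). p-values measure only the spread between these replicates. The libraries at 4 min after rapamycin entered no test. Exact sign-flip tests served shares and tails, and exact binomial intervals cover counting error only. Pools added 0.5 reads to a count. The wild-type pool beside the deletion strains was aligned to a longer list, with further entries ending in _mRNA. These were left out of the 2-fold shares of all transcripts but kept in the totals behind the CUT shares. The edgeR fit was tested on simulated data. Named CUTs, 48 in all, were the 8 most abundant, up to 4 per direction and contrast by fold, 3 highest and lowest per pool, and those with extreme tails, and others were named after their values were seen. The members, lists and kinds were chosen with earlier results of these data known. Alternatives were other scaling, filters, blocks, minimum reads, ENO2 kept and each replicate left out. The 60 min Mex67-AA library, thiolutin replicate B, Mex67-AA with heat, double mutants and controls without rapamycin were not analysed here. Coordinates of 5604 of 5609 matched genes overlap RefSeq R64, after adding 1 to the first coordinate.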

Additional observations from a re-analysis of the deposited data

Results flagged for a closer look

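All CUTs together were lower in every Mex67-AA replicate at 8 to 16 min and higher in every heat replicate at 2 to 8 min, log2 -0.72 against 0.27, a difference of -0.99 (exact permutation of the chase labels p = 0.1, the smallest that 3 against 3 allow). The differences of single entries, relative to library totals, were not tested. At the same times they were -1.28 for XUT_7R-243,CUT606 (-1.08 and 0.20) and -2.47 for CUT061,YDR003W,YDR003W-A, the RCR2 entry (-1.07 and 1.40). At 20 to 30 min of Mex67 anchoring against 14 to 20 min of heat, 5 of the 8 most abundant entries went in opposite directions. Every replicate of the first was below and of the second above 0 min. These were the COX4 entry YGL188C,YGL187C,CUT589 (difference -2.56, from -1.71 and 0.85), XUT_7R-243,CUT606 (-2.71, from -1.59 and 1.12), CUT061,YDR003W,YDR003W-A (-4.19, from -2.52 and 1.67), SUT434,XUT_1R-18,SUT435,CUT438, antisense to GDH3 and BDH2 (-2.95, from -1.95 and 1.01) and SUT054,XUT_4F-267,CUT065,SUT055, antisense to NRG1 (-0.85, from -0.27 and 0.59). Of these, edgeR called neither change of SUT054,XUT_4F-267,CUT065,SUT055 (adjusted p = 0.47 and 0.40), nor the heat change of SUT434,XUT_1R-18,SUT435,CUT438 (0.10). At the earlier times it did not call the heat change of XUT_7R-243,CUT606 (0.53). CUT599,YGL072C, outside those 8, was also below 0 min in every late Mex67-AA replicate and above it in every late heat replicate. edgeR called both of its late changes (log2 -2.60 and 1.61). The chases differ in strain, temperature and times, which cannot be told apart from the treatments.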

How the results depend on the processing

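Depth limits the tests to 35 and 18 CUTs, and the number of calls depends most on that filter. The direction of the Mex67-AA calls depends on the scaling, since most fell by library totals but not with DESeq2 or TMM factors. At 8 to 16 min after rapamycin the 14 calls became 8 with DESeq2 (5 rose, 3 fell), 39 with no filter and 45 with at least 10 reads, and 2 to 28 with 1 replicate left out. At 20 to 30 min the 20 calls became 10 (10 rose, 0 fell), 59 and 69, and 12 to 32. In heat at 2 to 8 min the 2 calls became 4 with at least 10 reads and 1 with separate libraries in a replicate block, and 0 to 3 with 1 replicate left out. At 14 to 20 min the 9 became 5, 18 and 19, and 5 to 10. With no replicate block the counts were 12, 18, 3 and 9, and no count moved by over 1.5 times. The single entries whose sign turned did so under another scaling. With DESeq2 and RLE factors XUT_16F-28,CUT402 gave 0.15 and 0.11 and XUT_2F-242,CUT030 0.21 and 0.17 at 20 to 30 min, and YKL111C,YKL110C,CUT707,XUT_11R-92 gave 0.57 and 0.57, and 0.38 with TMM. XUT_2F-177,CUT025 gave 0.0056 with DESeq2, and CUT599,YGL072C 0.0024 at 8 to 16 min with RLE. The tail differences that turned were heat at 20 reads (-1.40 and -1.50) and over reads (-0.16), and CUT less mRNA tails at 0 min, 9.18 over reads and -0.41 for the COX4 entry, the 1 CUT entry with 10 reads in every library. In the pools, log2 share ratios without the CUT with the most reads were 1.16 for Dcp2-AID, 0.68 for Xrn1-AID, 0.14 for Pab1-AID at 1 h and 0.31 at 2 h. With ENO2 kept they were 0.11 for Pab1-AID at 2 h, -0.11 for ccr4Δ, -0.34 for pan2Δ, 1.13 for pop2Δ, 0.75 for the digestion and 0.035 for thiolutin. 2 alternatives were chosen after seeing the data, the undigested control (ccr4Δ -0.12, pan2Δ -0.38) and the second digested table (0.018). The cause was not tested. Of the other alternative values of summary results, 122 stayed within their limits. Of 417 alternative values of the named CUT calls, 328 stayed the same, 80 were weaker and 9 were reversed.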
